A study of Mus musculus with 14 samples.

Results

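Round spermatids are the direct product of the meiotic divisions of spermatocytes, and the change in RNA from the spermatocyte to the spermatid was followed here in mice labelled Setd2KO. The genes described are autosomal and reach, on average over the replicates, 1 FPKM, fragments per kilobase of transcript scaled to the number of mapped reads, in 1 or both of the Setd2KO cell types. There were 10726 of them among 19725 autosomal genes and 20626 genes in all. Of these, 8110 reached 1 FPKM in both cell types, 1524 in spermatocytes alone and 1092 in spermatids alone. Just inside the limit stood Ly6e and Ppp1r15a at 1.00 FPKM in the higher cell type, and just outside it Dhh and Plekhg1 at 0.9996 FPKM.

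All cells came from testes of adult C57BL/6J mice and were isolated by FACS after staining of DNA with Hoechst and propidium iodide. The 4 groups were pachytene and diplotene spermatocytes (PD) of WT mice, PD of Setd2KO mice, round spermatids (RS) of WT mice and RS of Setd2KO mice, each with 2 RNA-seq libraries of polyadenylated RNA and 1 H3K36me3 ChIP-seq peak list. An input library of the ChIP is listed for PD of each genotype and for RS of neither. No agent or further allele is named for any group. The promoter that drove the deletion, the part of Setd2 removed and the number of mice behind each library are not given in the sources used here. The p-values therefore reflect only how far these libraries spread, and that spread may be technical.

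Setd2 is the enzyme that adds the third methyl group to lysine 36 of histone H3 behind elongating RNA polymerase II. In male germ cells the meiotic program gives way after the divisions to a burst of transcription of spermatid genes, many under the activator CREM, whose products build the acrosome, the tail and the condensed nucleus. Histones are then replaced by transition proteins and these by protamines, and much spermatid mRNA is stored before it is translated.

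Steps of the FPKM values by whole reads gave a depth at which 1 read on a kilobase of transcript adds 0.0118 FPKM in the deepest library (84.6 megareads) and 0.0197 FPKM in the shallowest (50.7 megareads), both of RS WT. The replicates of a group had r = 0.992 to 0.995 over genes. Setd2 itself stood at 21 and 21.4 FPKM in PD and 12.1 and 8.67 FPKM in RS of the Setd2KO libraries, and at 21.2 and 19.1 FPKM in PD and 5.24 and 5.58 FPKM in RS of WT; the value covers the whole gene model and does not check a deletion, so genotypes are as labelled. For 468 autosomal spermatid genes, chosen as those with 20 FPKM or more in RS WT and a PD WT level at least 20-fold lower, the median level in PD was 13.0% and 7.68% of the RS level in the Setd2KO libraries and 1.96% and 2.75% in the WT libraries, the WT values being held low by the choice of genes. In the reverse direction, 24 spermatocyte genes chosen by the same limits had a median RS level of 5.35% and 4.68% of the PD level in Setd2KO and 3.66% and 4.08% in WT. Fewer cells of a type and less RNA per cell cannot be told apart in such samples. Markers of Sertoli cells summed to 6.95 and 8.23 FPKM over 14 genes in PD Setd2KO and to 20.9 and 17.9 FPKM in RS Setd2KO, with 8 of the 14 under 1 FPKM in every Setd2KO library. In RS WT these 14 genes summed to 7.27 and 10.3 FPKM. Markers of peritubular myoid and stromal cells summed to 8.66 and 10.3 FPKM over 10 genes in PD Setd2KO and to 43.0 and 42.4 FPKM in RS Setd2KO, against 78.1 and 82.6 FPKM in RS WT. Actg2 made up most of the RS WT sum, and the other 9 genes summed to 5.82 and 8.14 FPKM in PD Setd2KO, 20.6 and 20.7 FPKM in RS Setd2KO and 3.14 and 5.53 FPKM in RS WT. No gene of these lists was at 0 in all Setd2KO libraries.

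The step from PD to RS changed most of the measured transcriptome in Setd2KO. On the log2(FPKM + 1) scale, which weighs down changes of low genes, histone genes of the spermatocyte fell furthest, and protamine and transition protein genes were among those that rose furthest. Of the 10726 genes, 3373 rose (31.4%), 5477 fell (51.1%) and 1876 did not pass the test, so 82.5% were called (limma on log2(FPKM + 1) over all 8 libraries, Benjamini-Hochberg adjusted p under 0.05 over 11452 tested genes). Of all genes tested, sex-linked ones included, 34.2% rose and 48.5% fell. Both RS libraries lay above both PD libraries for 37% of the genes and below them for 57.7%. Among the 8110 genes at 1 FPKM or more in both cell types, 2303 rose and 3977 fell. Genes that reached 1 FPKM in 1 cell type alone went the way the choice fixes, except for 24 of those in PD alone and 22 of those in RS alone that did not pass. The median change of all members was −0.35 on the log2 scale, and it was −0.28 with upper-quartile scaling and −0.24 with quantile normalization, so changes below are given relative to the median while p-values test the deposited scale against 0. Under both scalings 3350 of the risers and 5017 of the fallers kept their call. In size, 1902 genes rose and 3021 fell by at least 2-fold, and 804 rose and 703 fell by at least 4-fold, on the FPKM + 1 scale.

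**Figure D1:**
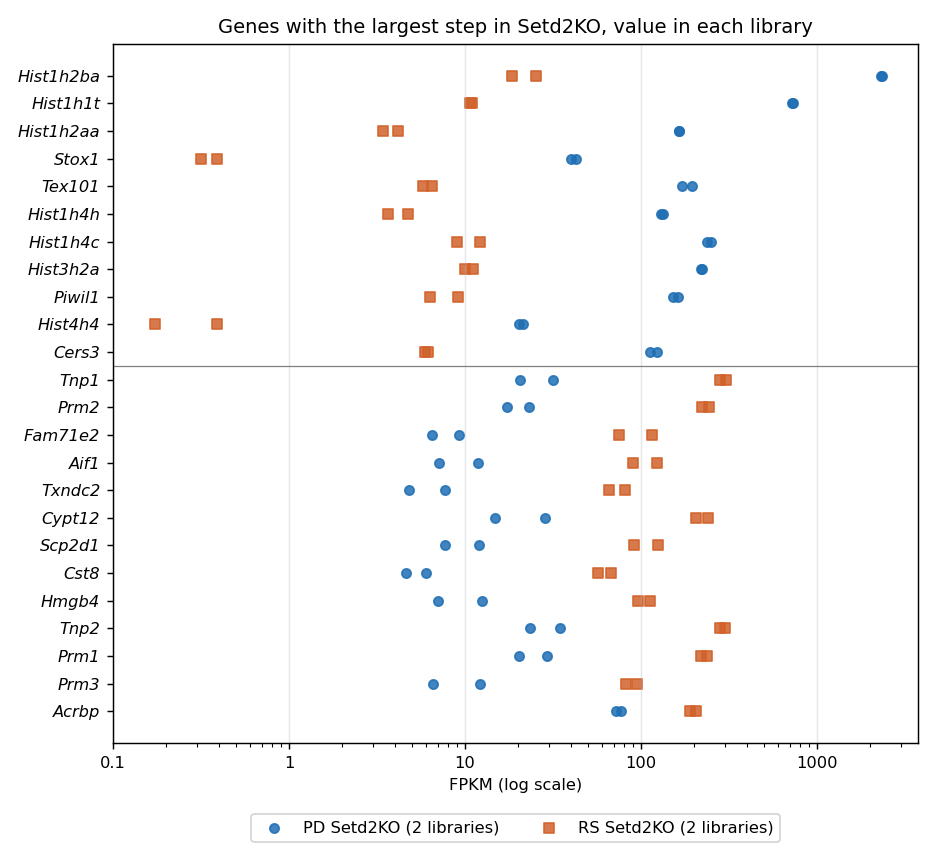
Level of each gene (FPKM, log axis) in the 2 PD Setd2KO libraries (circles) and the 2 RS Setd2KO libraries (squares), for the named genes with the largest falls (above the line) and rises, with Prm1, Prm3, Tnp2 and Acrbp added. PD and RS libraries lie apart for every gene shown, and the PD libraries of the rising genes other than Acrbp spread more than those of the falling genes.

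Testis-specific histones gave the largest falls on the log2(FPKM + 1) scale. Hist1h2ba, which encodes the testis histone H2B (TH2B), stood at 2313 and 2341 FPKM in PD and 25.4 and 18.5 FPKM in RS, a relative log2 change of −6.33 (SE 0.22, limma adjusted p = 4.22e-09). It was the most abundant transcript per length of all members in PD Setd2KO. The linker histone Hist1h1t (H1t) went from 734 and 723 FPKM to 11 and 10.7 FPKM (−5.59, adjusted p = 3.88e-09), and Hist1h2aa, the testis histone H2A (TH2A), from 164 and 164 FPKM to 4.16 and 3.42 FPKM (−4.76, 3.88e-09). In all 3 the PD libraries were close to each other and far above RS. The order depends on the pseudocount of 1 FPKM, since by the plain ratio of mean FPKM Stox1 fell 117-fold, Hist1h2ba 106-fold, Ccnb1ip1 102-fold, Hist1h1t 67.2-fold and Hist1h2aa 43.2-fold. Hist1h2aa and Hist1h2ba lie head to head on chromosome 13 with 280 bases between their starts, and because they fell together the shared upstream stretch is shown. It covers chr13:23934187-23934436 (RefSeq, GRCm38.p6, plus strand, which is that of Hist1h2aa, listed there as H2ac1), with the letters TGACG, the core of a cyclic AMP response element, in capitals 171 bases before the Hist1h2aa start. These letters were chosen after the sequence was seen.
Hist1h2aa: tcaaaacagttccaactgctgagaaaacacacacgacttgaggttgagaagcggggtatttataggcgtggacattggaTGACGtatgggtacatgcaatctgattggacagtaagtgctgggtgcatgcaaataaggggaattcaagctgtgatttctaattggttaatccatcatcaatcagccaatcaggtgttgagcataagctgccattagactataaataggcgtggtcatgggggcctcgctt

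Histone genes of the cell division type were also among the largest falls, although most mRNAs of that type lack a poly(A) tail. Hist1h4h stood at 134 and 130.4 FPKM in PD and 4.75 and 3.66 FPKM in RS (−4.33), Hist1h4c at 238 and 249.8 in PD and 12.1 and 9.05 FPKM in RS (−4.06), and Hist3h2a at 221 and 219.5 in PD and 11.1 and 10 FPKM in RS (−3.91). Hist4h4 went from 20.3 and 21.3 FPKM to 0.393 and 0.172 FPKM. Copies of histone genes are nearly identical in sequence, so reads can be split between them and the level of any 1 copy is uncertain. Of the genes other than histones, Stox1, a winged helix protein, fell from 40.1 and 42.8 FPKM to 0.389 and 0.317 FPKM (−4.62, adjusted p = 3.88e-09), below the level of 1 FPKM. Tex101, a germ cell surface protein needed for sperm to pass into the oviduct, went from 171 and 196 to 6.51 and 5.79 FPKM (−4.34). Cers3, the ceramide synthase that makes ceramides of very long chain fatty acids, went from 112 and 124 to 5.93 and 6.18 FPKM (−3.72). The limma adjusted p-values of these 7 genes reached 1.79e-08 at most.

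Protamine and transition protein genes, which encode the small basic proteins that replace histones in the spermatid nucleus, all rose. Tnp1 stood at 31.5 and 20.6 FPKM in PD and 302 and 283 FPKM in RS, a relative log2 change of 3.82 (SE 0.19, limma adjusted p = 3.18e-08). Tnp2 stood at 34.6 and 23.5 in PD and 301 and 282 FPKM in RS (3.66), Prm1 at 29.3 and 20.4 in PD and 238 and 219 FPKM in RS (3.52), and Prm2 at 23.2 and 17.4 in PD and 244 and 222 FPKM in RS (3.82). For each of these genes the first PD library read above the second, as it did for the 468 spermatid genes described above. Prm3, an acidic protein encoded in the same cluster as Prm1 and Prm2, went from 12.2 and 6.58 to 82 and 94.7 FPKM (3.51, adjusted p = 1.07e-07). In WT the RS level of Tnp1 was 1067 and 948 FPKM and that of Prm1 941 and 912 FPKM. The Setd2KO step minus the WT step, relative to the median difference of all members, was −1.15 for Tnp1 (adjusted p = 0.00433), −1.23 for Tnp2 (0.00274), −1.08 for Prm1 (0.00374) and −1.71 for Prm3 (0.00132), and for Prm2 the difference of −0.66 did not pass (0.0599). With the spermatid RNA share given above subtracted from each PD library, the differences on the deposited scale turned from −1.29 to 1.86 for Tnp1 (0.00362), from −1.37 to 1.61 for Tnp2 (0.0145), from −0.80 to 2.58 for Prm2 (0.00259) and from −1.22 to 1.48 for Prm1 (0.0874). For Prm3 it moved from −1.85 to −0.79 and no longer passed (0.135). The subtraction took 1 or both PD Setd2KO libraries to 0 for all 5 genes, and both for Tnp1 and Prm2, so these values are set by the floor and the pseudocount and give no direction. It did so for 787 of all members, among them 10 of the 21 fusion genes, 4 of the 10 kinase genes, 5 of the 31 acrosome genes and 6 of the 25 manchette genes counted below, and 0 of the 29 meiotic division genes. The origin of the share was not tested.

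Acrbp, which binds the zymogen of acrosin in the acrosome and is named, as Acrbp1, in the title of the series, stood at 76.6 and 72.1 FPKM in PD and 189.6 and 206 FPKM in RS, a relative rise of 1.75 (SE 0.16, limma adjusted p = 8.21e-06). In WT it stood at 152 and 192 FPKM in PD and 310.4 and 283 FPKM in RS. All Setd2KO values were below the WT values of the same cell type, and the relative WT step was 1.08. The difference between the steps was 0.75 (adjusted p = 0.0625), and it passed with either scaling (0.00401 and 0.00346) and with spermatid RNA subtracted (0.00823). Each of these runs also raised the median difference of all members. The 250 bases before the Acrbp start (chr6:125049677-125049926, GRCm38.p6) are shown for comparison with the genes that rose further, with GTTGCC, an arm of the X-box bound by RFX factors, in capitals on the other strand. The letters TGACG, marked before Hist1h2aa above, also occur near the end of this stretch, in lower case.
Acrbp: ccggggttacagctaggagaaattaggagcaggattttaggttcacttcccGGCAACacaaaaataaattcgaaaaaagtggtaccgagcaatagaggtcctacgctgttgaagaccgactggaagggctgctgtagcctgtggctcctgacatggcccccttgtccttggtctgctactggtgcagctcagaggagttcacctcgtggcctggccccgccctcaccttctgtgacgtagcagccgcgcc

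Further large rises came from genes of several sperm structures. Txndc2 encodes a sperm thioredoxin and went from 7.72 and 4.81 FPKM to 65.6 and 80.6 FPKM (3.72, limma adjusted p = 3.05e-08). Cypt12, of a family of basic proteins of the spermatid head, went from 28.3 and 14.8 to 205 and 239 FPKM (3.72). Cst8, a cystatin of testis and epididymis, went from 6 and 4.63 to 57.1 and 67.9 FPKM (3.69). In each the RS libraries stood far above the PD libraries. Hmgb4, a germ cell HMG box protein, rose by 3.68, Scp2d1, a sterol carrier domain protein, by 3.69, Aif1 by 3.73 and Fam71e2 by 3.78. Limma adjusted p of these 4 genes was at most 1.20e-07. The bases just before the start are shown for 4 of the largest rises that hold a searched motif, in capitals. It is ACAATG, bound by SOX factors, in Tnp1 (chr1:73015900-73015999, 42 bases before the start), Txndc2 (chr17:65642205-65642354, 122 bases before) and Cypt12 (chr3:17948344-17948443, other strand, 47 bases before), and GTTGCC in Cst8 (chr2:148798739-148798838, 61 bases before). Not every match is marked, and the Cst8 stretch also holds TAACNG, counted below, in lower case.
Tnp1: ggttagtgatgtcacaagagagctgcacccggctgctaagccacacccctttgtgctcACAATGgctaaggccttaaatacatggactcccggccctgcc
Txndc2: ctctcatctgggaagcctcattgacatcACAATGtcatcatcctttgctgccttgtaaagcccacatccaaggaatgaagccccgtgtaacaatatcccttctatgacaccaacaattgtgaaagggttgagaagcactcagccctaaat
Cypt12: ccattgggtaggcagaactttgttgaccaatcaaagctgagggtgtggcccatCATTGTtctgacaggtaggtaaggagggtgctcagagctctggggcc
Cst8: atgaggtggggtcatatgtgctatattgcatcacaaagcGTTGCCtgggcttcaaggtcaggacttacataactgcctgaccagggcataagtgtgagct

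Searched letters were counted over RefSeq promoters, from 250 bases before to 50 after the start on either strand, for 8678 members with a promoter in the table (80.9%, matched by symbol or synonym). ACAATG was present in 23.1% of 654 promoters of genes that rose at least 4-fold, in 6.00% of 567 promoters of genes that fell at least 4-fold, in 8.22% of all members' promoters and in 12.6% of all 32851 promoters. GTTGCC was present in 21.6%, 12%, 14% and 12.5% of these sets. TAACNG, bound by MYB factors such as A-MYB of the pachytene spermatocyte, was present in 26%, 22%, 20.2% and 23.3%. TGACGTCA, the complete cyclic AMP response element, was present in 3.36%, 2.47%, 3.63% and 1.79%. The median GC content of the sets was 52.3%, 60.7%, 60% and 52.7%, and its part in these shares was not tested. The motifs do not contain each other, and a match is a description of letters only.

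**Figure D2:**
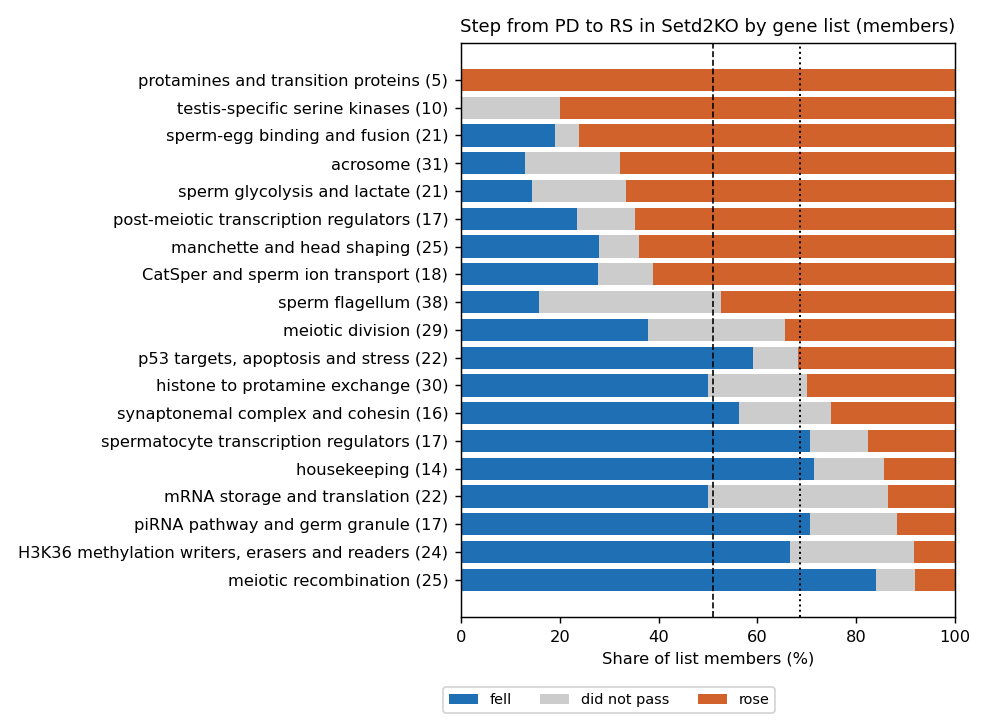
Share (%) of the genes of each list that fell (blue), did not pass (grey) or rose (orange) from PD to RS in Setd2KO, with the number of members in parentheses. The dashed line marks the 51.1% of all members that fell, and the part right of the dotted line equals the 31.4% that rose. Bars of the protamine, kinase, fusion and acrosome lists, among others, pass the dotted line to the left. The bar of the recombination list passes the dashed line to the right, as do those of the piRNA, spermatocyte regulator, H3K36 and housekeeping lists, among others.

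Within histone to protamine exchange, 9 of 30 genes rose and 15 fell, near the 31.4% and 51.1% of all members. Besides the 3 testis histones, genes that fell were Rnf8, the ubiquitin ligase of histone H2A in meiosis and elongation, from 10.4 and 10.6 to 2.09 and 1.81 FPKM (−1.61), and H3f3b, a gene for histone H3.3, which went from 254 and 265 to 61.3 and 72.1 FPKM (−1.60). The risers were led by Hils1, the spermatid linker histone, from 32.5 and 17.6 to 215 and 274 FPKM (3.64, limma adjusted p = 2.44e-07), and H1fnt (H1T2), a linker histone of the round spermatid nucleus, from 8.61 and 6.08 to 69.8 and 88.9 FPKM (3.62). The chromatin remodeller Chd5 rose by 3.28 from 3.72 and 2.44 to 27.7 and 31.8 FPKM and Cdyl, a chromodomain protein, by 3.24. The bromodomain protein Brdt, read at 88.4 and 88.4 FPKM in PD and 66.4 and 71.6 FPKM in RS (adjusted p = 0.0344), moved with the median of all genes.

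Of 17 spermatocyte regulators 3 rose and 12 fell. Ythdc2, the RNA helicase that with Meioc drives entry into meiosis, went from 10.1 and 10.9 to 1.12 and 1.07 FPKM (−2.10, limma adjusted p = 1.20e-08), and Meioc from 65.9 and 69.7 to 22.6 and 20 FPKM (−1.28). Mybl1, which encodes A-MYB, went from 30.3 and 31.1 to 18.7 and 14 FPKM (−0.53, adjusted p = 0.000356), whereas in WT it went from 24.6 and 30.8 to 5.05 and 5.83 FPKM, and the steps differed by 1.41 (0.00207). Hsf2, a heat shock factor, rose from 5.16 and 4 to 23.1 and 31.3 FPKM (2.68). Of 17 post-meiotic regulators 11 rose and 4 fell. After Hmgb4, the largest rises were those of Fhl5, also called ACT, a coactivator of CREM, from 6.68 and 3.82 to 48.1 and 68 FPKM (3.61), Spz1 from 25.9 and 15.9 to 160.3 and 214 FPKM (3.48) and Kif17, the kinesin that moves ACT, from 5.75 and 3.97 to 38.9 and 55 FPKM (3.38). Crem itself went from 34.2 and 32.5 to 54.5 and 66.4 FPKM (1.18, adjusted p = 0.000663). Rfx1 rose by 3.15 and Sox5 by 2.90, while Sox30, which activates spermatid genes, rose by 1.11.

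Of 22 genes of mRNA storage and translation 3 rose and 11 fell, a share of falls near the 51.1% of all members. Dazl, a translational activator of early germ cells, went from 30.2 and 36 to 1.37 and 1.26 FPKM (−3.52, limma adjusted p = 4.07e-09), and Celf1 from 8.82 and 9.81 to 1.12 and 1.11 FPKM (−1.93). Ybx2 (MSY2), which coats stored mRNA, was read at 451 and 489.7 FPKM in PD and 370.0 and 367 FPKM in RS and did not pass (0.0739). Papolb, the testis poly(A) polymerase, rose from 72 and 68.7 to 163 and 170.1 FPKM (1.58). Of 17 genes of the piRNA pathway, which makes small RNAs that silence transposons and clear mRNA, 2 rose and 12 fell, with a median relative change of −1.60 against 0 over all members. Piwil1 (MIWI), the Argonaute protein of pachytene piRNAs, went from 152 and 162 to 9.08 and 6.35 FPKM (−3.84, adjusted p = 9.63e-09), Tdrd5 from 77.5 and 77.5 to 4.36 and 3.84 FPKM (−3.59), Tdrd1 from 105 and 116 to 6.29 and 6.4 FPKM (−3.57, over gene intervals that differ between the tables) and Piwil2 (MILI) from 90.8 and 102 to 7.3 and 5.77 FPKM (−3.34). Mael, of the germ granule, remained among the abundant transcripts, with 539 and 557 FPKM in PD and 574 and 620.2 FPKM in RS. The stretch before Piwil1 (chr5:128736096-128736245, GRCm38.p6) is shown because it holds TAACNG on the other strand at 64 and 139 bases before the start.
Piwil1: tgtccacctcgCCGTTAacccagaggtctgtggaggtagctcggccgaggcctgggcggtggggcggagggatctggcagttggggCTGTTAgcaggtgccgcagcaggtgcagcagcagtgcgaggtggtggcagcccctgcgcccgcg

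Recombination genes of meiotic prophase mostly fell. Of 25 recombination genes 2 rose and 21 fell, with a median relative change of −1.26. Spata22, which with Meiob binds single-stranded DNA at breaks, went from 16.4 and 18.8 to 0.433 and 0.309 FPKM (−3.41, limma adjusted p = 4.07e-09), and Topbp1, an activator of the kinase ATR, from 27.5 and 28.7 to 1.6 and 1.21 FPKM (−3.25). H2afx, the histone H2A.X of the sex body, went from 142 and 141 to 13.7 and 10.6 FPKM (−3.09) and Ccnb1ip1 (HEI10), a crossover factor, from 8.95 and 9.69 to 0.103 and 0.0804 FPKM (−2.89). The risers of this list were Brca1 (2.10) and Tex15 (2.84), from 5.69 and 3.4 to 27 and 32.2 FPKM. Of 16 genes of the synaptonemal complex and cohesin 4 rose and 9 fell, a share of falls near the 51.1% of all members, with a median relative change of −0.11. Tex12, of the central element, went from 17.4 and 20.5 to 0.503 and 0.614 FPKM (−3.32) and Sycp2, of the axis, from 142 and 149 to 23.4 and 22.2 FPKM (−2.27). Rec8, the meiotic cohesin subunit, went the other way, from 2.68 and 1.78 to 19.1 and 28.2 FPKM (3.27, adjusted p = 1.33e-07), and so did Smc3 (2.5).

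Of the germ cell lists, meiotic division genes had the most members with a Setd2KO step above the WT step. In the Setd2KO step 10 of 29 rose and 11 fell, against 31.4% and 51.1% of all members. Cks2, a subunit of cyclin-dependent kinases, went from 201 and 202 to 14.8 and 11.7 FPKM (−3.49, limma adjusted p = 1.15e-08), while Cdc25c, the phosphatase that activates CDK1, went from 3.17 and 1.8 to 17.6 and 19.7 FPKM (2.87) and Ccnb1, cyclin B1, from 12.7 and 11.5 to 58.5 and 56.8 FPKM (2.52). The steps differed for 17 of the 29 genes, 15 higher and 2 lower in Setd2KO, against 7.77% higher and 25.9% lower over all members. Nek2, a centrosomal kinase, stood at 116 and 119 FPKM in PD and 107 and 87.8 FPKM in RS of Setd2KO, and at 92.4 and 112 in PD and 30.6 and 33.9 FPKM in RS of WT (difference 1.5, adjusted p = 0.00142). Pttg1, securin, stood at 59.6 and 62.6 in PD and 55.6 and 55.3 FPKM in RS of Setd2KO and at 58.9 and 71 in PD and 25.4 and 22.8 FPKM in RS of WT (1.40, 0.00125). Cdk1 stood at 11.3 and 12.3 in PD and 8.97 and 7.03 FPKM in RS of Setd2KO and at 9.72 and 12.9 in PD and 2.38 and 2.83 FPKM in RS of WT (1.39, 0.00195). In these 3 genes the PD levels of the genotypes were close and the RS levels of Setd2KO lay above those of WT. Ccna1, the cyclin A of male meiosis, stood at 36.6 and 35.1 in PD and 116 and 100.5 FPKM in RS of Setd2KO and at 41.3 and 62.1 in PD and 64.1 and 67.7 FPKM in RS of WT (1.33, 0.00537). Both scalings and the subtraction of spermatid RNA raised the median difference of all members, which favours higher calls among these 29 genes as well. The number higher was 20 with either scaling and 18 with spermatid RNA subtracted, but 9 without the second PD Setd2KO library, 8 without the first RS WT library and 7 without the first RS Setd2KO library, with 0 to 2 lower throughout.

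Acrosome genes rose in the main. Of 31 genes 21 rose and 4 fell, with a median relative change of 1.22. Spaca7 went from 14.2 and 7.86 to 94.6 and 127 FPKM (3.60, limma adjusted p = 7.57e-07), Acrv1, of the acrosomal matrix, from 17.6 and 9.81 to 116 and 154 FPKM (3.60), Spaca3, a sperm lysozyme-like protein, from 17.3 and 10.1 to 114 and 154 FPKM (3.58) and Spaca4 from 10.8 and 5.11 to 70.1 and 84 FPKM (3.55). Spaca1, needed for the acrosome to form, went from 26.9 and 13.8 to 158 and 200.2 FPKM (3.49). The 4 genes that fell, Gopc, Vps54, Smap2 and Golga3, act at the Golgi, with Gopc going from 12.4 and 13.9 to 2.34 and 2.02 FPKM (−1.80) and Vps54 from 7.69 and 8.62 to 0.875 and 0.916 FPKM (−1.92). Acr, the gene of acrosin itself, rose from 34.6 and 34.6 to 63.7 and 75.5 FPKM (1.33). For 9 genes the signed step was lower than in WT, which is a smaller rise or a larger fall, and for 2 higher, near the 25.9% and 7.77% of all members. These counts were 9 and 7 with upper-quartile scaling, 9 and 9 with quantile normalization and 5 and 6 with spermatid RNA subtracted.

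Sperm-egg fusion genes and spermatid kinases showed the same direction. Of 21 genes of sperm-egg binding and fusion 16 rose and 4 fell, with a median relative change of 2.42. Izumo1, the sperm ligand of the egg receptor Juno, went from 5.22 and 2.93 to 39.7 and 51 FPKM (3.57, limma adjusted p = 1.16e-07), Izumo2 from 6.22 and 2.84 to 38 and 51.8 FPKM (3.46) and Pdilt, a testis chaperone, from 6.53 and 3.89 to 41.4 and 62.2 FPKM (3.44). Of the 10 genes of spermatid kinases 8 rose and 0 fell. Tssk3 went from 6.12 and 4.26 to 48 and 63.8 FPKM (3.55, adjusted p = 2.92e-08), Tssk2 from 17.4 and 9.53 to 110.0 and 146 FPKM (3.55), Tssk4 from 10.2 and 5.55 to 64 and 79.7 FPKM (3.43) and Tssk1 from 19.6 and 11.9 to 109.7 and 148 FPKM (3.33). Tssk1 and Tssk2 are close relatives, and reads may be split between them. The signed step was lower than in WT for 12 of the 21 and 8 of the 10 genes, against 25.9% of all members. With spermatid RNA subtracted it was lower for 7 and 5.

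The tail and the sperm head gave mixed counts. Of 38 flagellum genes 18 rose and 6 fell. Cabyr, a protein of the fibrous sheath, went from 17.2 and 12 to 118 and 183 FPKM (3.62, limma adjusted p = 1.34e-07), Odf1, of the outer dense fibres, from 21.5 and 12.7 to 141 and 187 FPKM (3.57) and Odf3 from 11.2 and 7.25 to 71.9 and 109 FPKM (3.5). Of the heavy chains of axonemal dynein, Dnah8 went from 318 and 405 to 114 and 128 FPKM (−1.21), Dnah1 from 38.4 and 39.8 to 18.2 and 16.8 FPKM (−0.76) and Dnah17 fell at a relative change of −0.43, whereas the intermediate chain gene Dnaic2 rose by 1.69. Of 25 genes of the manchette and of head shaping 16 rose and 7 fell. Spag4, of the nuclear envelope, went from 9.93 and 6.02 to 71 and 97.3 FPKM (3.61), Klhl10, a ubiquitin ligase adaptor, from 16.7 and 9.58 to 104 and 146 FPKM (3.53), Spem1 from 2.05 and 1.47 to 22.2 and 25.4 FPKM (3.53) and Cylc2, of the calyx, from 4.66 and 2.71 to 36 and 44.4 FPKM (3.51). For 14 of these 25 genes the signed step was lower than in WT, against 25.9% of all members, and for 5 with spermatid RNA subtracted.

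Ion transport and energy genes rose more often than they fell. Of 18 genes of CatSper, the calcium channel of the sperm tail, and of sperm ion transport 11 rose and 5 fell. The channel subunits split, with Catsper4 from 6.69 and 3.98 to 51.5 and 65.6 FPKM (3.61, limma adjusted p = 1.05e-07), Catsper1 from 3.09 and 2.56 to 21.6 and 41.5 FPKM (3.37) and Catsper3 from 3.99 and 2.08 to 24.7 and 36.5 FPKM (3.34), whereas the auxiliary subunit Catsperg2 went from 53.9 and 55 to 29.8 and 30.3 FPKM (−0.48). Atp1a4, the sodium pump of sperm, went from 7.86 and 4.54 to 55.1 and 73.4 FPKM (3.56). Of 21 genes of glycolysis and lactate 14 rose and 3 fell. Sperm-specific enzymes led, with Aldoart2 from 15.4 and 8.48 to 93.6 and 127 FPKM (3.5), Gapdhs from 13.8 and 7.97 to 89 and 113 FPKM (3.49) and Aldoart1 from 3.82 and 2.74 to 27 and 42.2 FPKM (3.39). Pgk2, the sperm phosphoglycerate kinase, went from 66.7 and 58 to 270.5 and 317 FPKM (2.57). The glucose transporter Slc2a3 fell from 544 and 575 to 216 and 176 FPKM (−1.16), and in WT it went from 645 and 783 to 80.3 and 94.9 FPKM, a difference of 1.64 between the steps (adjusted p = 0.00146).

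Genes for the writing and reading of H3K36 methylation fell more often than they rose, 16 against 2 of 24, where 51.1% of all members fell and 31.4% rose. Mtf2, a Polycomb protein whose Tudor domain reads the mark, went from 23.7 and 26.3 to 4.06 and 4.05 FPKM (−2.01, limma adjusted p = 2.15e-08), and Nsd1, a writer of dimethylation, from 5.75 and 6.2 to 1.27 and 1.41 FPKM (−1.22). Kdm4a, a demethylase of H3K36me3, rose from 2.31 and 2.36 to 6.27 and 7.64 FPKM (1.60). Setd2 fell by less than in WT, with a relative step of −0.63 (adjusted p = 9.42e-05) and a difference of 0.88 (0.0211), which did not pass without any 1 of 5 libraries (0.0524 to 0.0943). Of 22 p53 target, apoptosis and stress genes 7 rose and 13 fell, near the 31.4% and 51.1% of all members. Atf4 went from 27 and 30.2 to 2.88 and 3.4 FPKM (−2.48) while Asns, asparagine synthetase and a known target of ATF4, went from 3.83 and 2.98 to 28.1 and 33.2 FPKM (3.20, adjusted p = 2.20e-08). Of 14 housekeeping genes 2 rose and 10 fell. Their median relative change was −0.34, and that of the H3K36 list was −0.35, so the H3K36 list fell no further than housekeeping genes.

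Of the 5 most abundant transcripts of each cell type, Hist1h2ba was described above and the others named here changed by less. Ldhc, the lactate dehydrogenase of germ cells, was the highest in RS, with 1547 and 1471 FPKM in PD and 1583 and 1575 FPKM in RS, a relative change of 0.42 that did not pass (limma adjusted p = 0.773). Ubb, a polyubiquitin gene, stood at 1140.0 and 1127 in PD and 1170.0 and 1182 FPKM in RS (0.41, 0.785) and Fabp9, a fatty acid binding protein of the acrosome region, at 913 and 892 in PD and 971 and 984 FPKM in RS (0.47, 0.595). With quantile normalization all 3 passed, at log2 changes of 0.53 for Ldhc (6.44e-06), 0.27 for Ubb (0.0142) and 0.31 for Fabp9 (0.00187), and Fabp9 also passed in a fit of the Setd2KO libraries alone (0.00702) and without either PD WT library (0.0291). Meig1, of the flagellum list, stood at 767 and 712 FPKM in PD and 893 and 892 FPKM in RS (0.62) and did not pass (0.236). It passed with upper-quartile scaling (0.0357), with quantile normalization (0.000478) and in the fit of the Setd2KO libraries alone (0.00129). Eef1a1, translation elongation factor 1A, went from 1090.0 and 1102 to 635 and 654 FPKM (−0.41, 0.00266) and Tuba3b, an alpha tubulin of testis with a near-identical copy, from 941 and 1000 to 515 and 455 FPKM (−0.65). Crisp2, an acrosome and tail protein, stood at 620.4 and 598 FPKM in PD and 830.1 and 862 FPKM in RS (0.83, 0.0466), a call that was lost without any 1 of 6 libraries (0.081 to 0.204).

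Compared with WT, the Setd2KO step had a similar order of genes and a shorter reach upward. Across the members the steps of the genotypes, which share no library, correlated at r = 0.938 (rho = 0.926), as a description across genes that are not independent. In WT 32.8% of the members rose and 49% fell. Of the members, 2944 rose and 4785 fell in both genotypes, 32 rose in Setd2KO and fell in WT, and 131 fell in Setd2KO and rose in WT. A rise of at least 16-fold on the FPKM + 1 scale was reached by 0 genes in Setd2KO and by 417 in WT, and a fall of that size by 13 and 17. The largest log2 rise was 3.5 in Setd2KO against 5.57 in WT. Genes under 1 FPKM in both PD libraries and at 5 FPKM or more in both RS libraries numbered 72 in Setd2KO and 434 in WT, with 55 in common (76.4% and 12.7% of the lists), and genes with the reverse pattern 193 and 133, with 80 in common (41.5% and 60.2%). Beside these counts stand the PD levels of the 468 spermatid genes, 13.0% and 7.68% of RS in Setd2KO, and the part of that share in the counts was not tested.

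**Figure D3:**
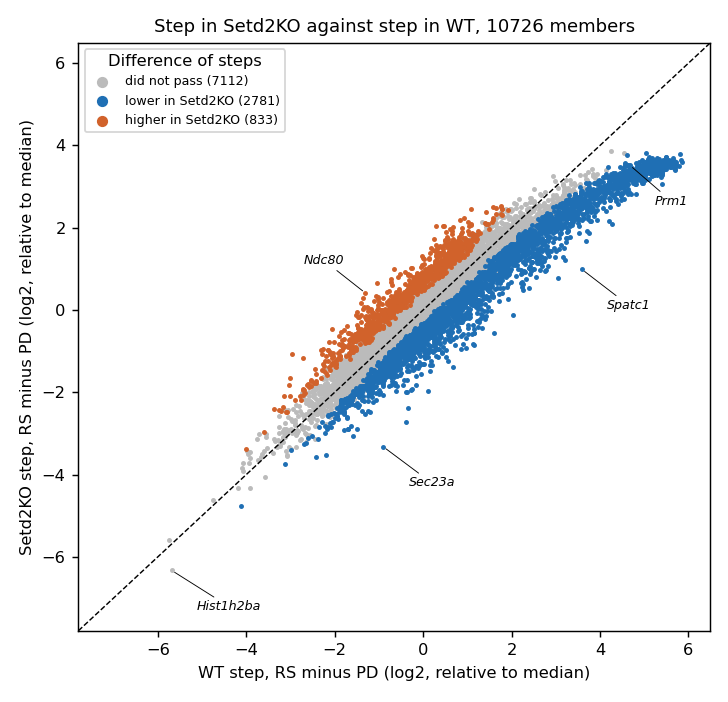
Step from PD to RS in Setd2KO (vertical) against the step in WT (horizontal) for 10726 genes, both as log2 changes of FPKM + 1 relative to the median of the members, with the line of equal steps dashed. Points are coloured by the test of the difference, 2781 lower and 833 higher in Setd2KO, and the cloud bends below the line at the largest WT rises.

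The difference between the steps passed for 3614 members (33.7%), 833 higher (7.77%) and 2781 lower (25.9%) in Setd2KO. The split moved with scaling, from 23.1% higher of all calls on the deposited scale to 43.7% with upper-quartile scaling, 54.4% with quantile normalization and 39.5% with spermatid RNA subtracted. Calls kept in direction under both scalings and with that subtraction numbered 825 higher and 1404 lower. Each of these runs moved the median log2 difference of the members upward from −0.14. It was −0.00065 with upper-quartile scaling, 0.063 with quantile normalization and −0.047 with the subtraction. They could therefore remove lower calls but hardly higher ones, and the 825 is no check of the higher calls. Of the genes that rose in Setd2KO, 1383 (41.0%) rose by less than in WT. Their median level in the PD Setd2KO libraries was 2.68 and 1.97 FPKM against 0.956 and 1.15 FPKM in PD WT, and in RS 11.5 and 14.3 FPKM against 19.6 and 19.4 FPKM. The 365 genes that rose by more than in WT were low, with medians of 2.80 and 2.84 FPKM in RS Setd2KO and 0.921 and 0.989 FPKM in RS WT. Their medians in PD Setd2KO were 0.792 and 0.883 FPKM. Members were chosen by Setd2KO levels alone, and a gene under 1 FPKM in PD Setd2KO enters only through RS Setd2KO. That choice favours such differences, so their number is not a result about low genes.

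Of the genes with the lowest differences, Spatc1 and Noxred1 were low in PD of both genotypes. Spatc1, or speriolin, a centrosomal protein of male germ cells (chr15:76098519-76123002, mm9), stood at 0.624 and 0.853 FPKM in PD and 1.69 and 1.72 FPKM in RS of Setd2KO, and at 1.5 and 1.54 FPKM and 24.5 and 23.1 FPKM in WT, a difference of −2.52 (SE 0.15, limma adjusted p = 2.52e-05). Noxred1 (chr12:88562073-88579551) stood at 1.42 and 1.87 in PD and 2.55 and 2.47 FPKM in RS of Setd2KO and at 1.18 and 1.57 in PD and 15 and 15.1 FPKM in RS of WT (−2.21, 5.26e-05), and its Setd2KO step did not pass without the first PD Setd2KO library (0.108). In both genes all PD libraries read under 2 FPKM and the RS Setd2KO libraries stayed far below RS WT. Sec23a, of the coat of vesicles leaving the endoplasmic reticulum (chr12:60059371-60113004), fell from 27.1 and 28 to 1.19 and 1.28 FPKM in Setd2KO and from 16.8 and 20.7 to 7.64 and 7.58 FPKM in WT (−2.34, 5.26e-05). Fbxo15, an F-box protein, fell from 10.1 and 11 to 0.402 and 0.344 FPKM in Setd2KO and from 5.92 and 6.63 to 3.73 and 3.44 FPKM in WT (−2.26, 3.91e-05). Znrf4, Tmem190, Ropn1 and Fam229a had differences of −2.24, −2.22, −2.20 and −2.20. Tmem190, an acrosome protein, had its PD libraries apart by genotype, at 14 and 6.99 FPKM in Setd2KO and 1.37 and 3.34 FPKM in WT, with 79.2 and 102 FPKM in RS Setd2KO and 146 and 127 FPKM in RS WT.

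Among the highest differences, genes of cell division stood beside genes of smooth muscle. Ndc80, of the kinetochore, stood at 14.2 and 15.1 FPKM in PD and 17.9 and 13.1 FPKM in RS of Setd2KO and at 13.6 and 15.9 in PD and 4.44 and 3.98 FPKM in RS of WT (1.79, SE 0.22, limma adjusted p = 0.00048). Aurkb, the kinase of the chromosomal passenger complex, stood at 3.44 and 4.35 in PD and 4.07 and 3.26 FPKM in RS of Setd2KO and at 7.62 and 8.74 in PD and 1.9 and 1.99 FPKM in RS of WT (1.71, 0.000335). Their Setd2KO steps did not pass, while both genes fell in WT. Arhgef39, Gem, a small GTPase, and Pxt1, a germ cell protein, had differences of 1.66, 1.67 and 1.73. Rnls, renalase, went from 89.9 and 93.7 to 35.3 and 32.3 FPKM in Setd2KO and from 61 and 95.7 to 3.28 and 14.4 FPKM in WT (1.98, 0.0397). That call was lost without any 1 of 6 libraries (0.0558 to 0.174), and without the first RS WT library the log2 difference on the deposited scale moved from 1.84 to 0.91. Myl9, the myosin light chain of smooth muscle, stood at 0.835 and 1.16 FPKM in PD and 6.09 and 4.83 FPKM in RS of Setd2KO and at 0.289 and 0.321 in PD and 0.304 and 0.618 FPKM in RS of WT (1.68, 0.000335). Acta2, smooth muscle actin, stood at 0.502 and 1.02 in PD and 4.69 and 4.55 FPKM in RS of Setd2KO and at 0.357 and 0.436 in PD and 0.137 and 0.704 FPKM in RS of WT (1.83, 0.000767), under the mean of 5 FPKM set for the largest differences. Of the 7 myoid and stromal markers among the members 6 rose in Setd2KO and 0 fell, with 6 differences higher and 1 lower, the last being Actg2, at 75 and 77.1 FPKM in RS WT. The part of such cells in the differences was not tested. Gsn, gelsolin (1.77), has other gene intervals in the PD and RS tables, so its step is uncertain.

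**Figure D4:**
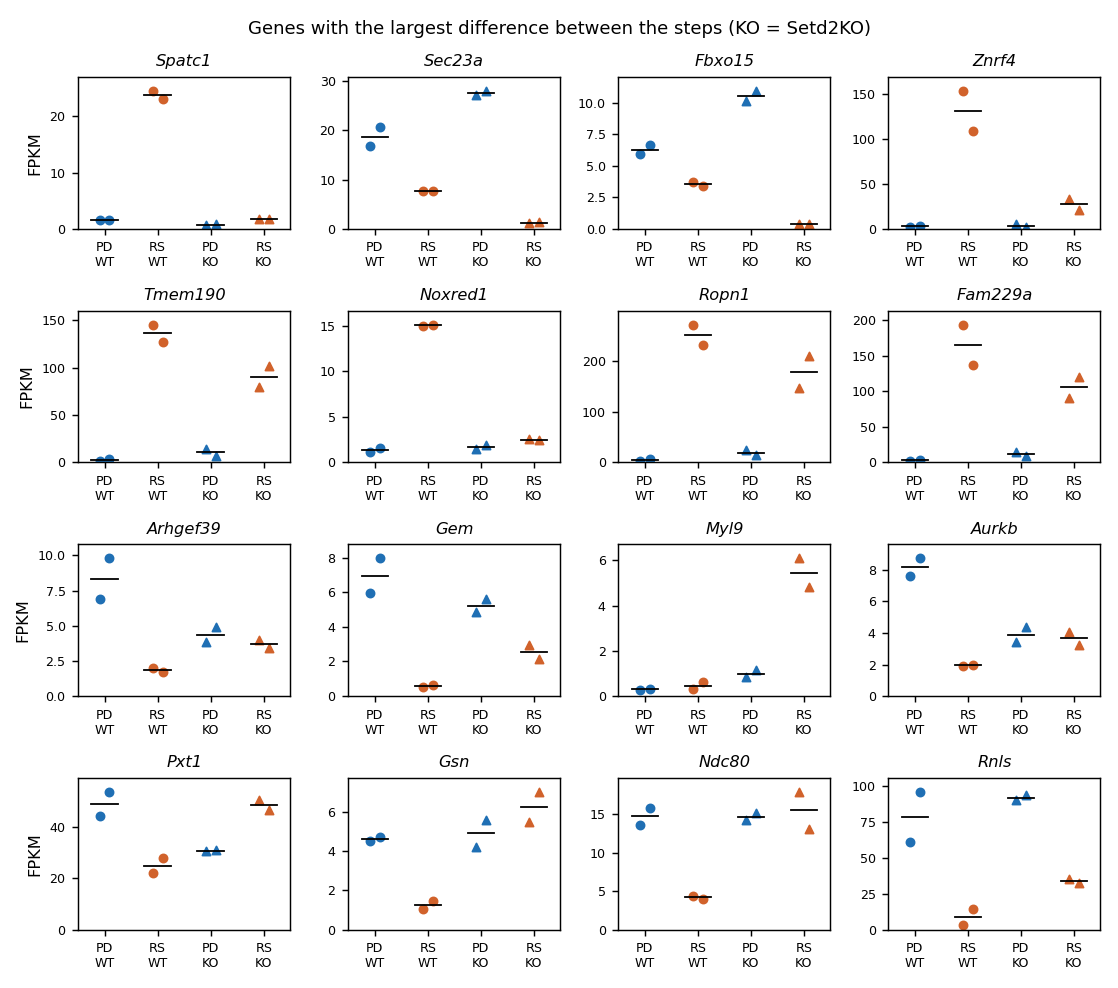
Level (FPKM, linear axes from 0) of the 16 named genes with the largest differences between the Setd2KO and WT steps among genes whose highest group averaged 5 FPKM or more, 8 lower (upper panels) and 8 higher (lower panels), with both libraries of each group as points (circles WT, triangles Setd2KO, blue PD, orange RS) and their mean as a line. Spatc1 and Noxred1 rise in WT and stay low in Setd2KO, and Ndc80 and Aurkb fall in WT and hold their level in Setd2KO.

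The step varied with where the mark lay in WT, and it did so in both genotypes. Of the members, 7729 had a WT H3K36me3 peak over the gene in both cell types, 540 in PD alone, 290 in RS alone and 2167 in neither. Genes with a peak in both rose in 19.9% and fell in 60.2%, with a median relative change of −0.24, and those with a peak in PD alone rose in 20.7% and fell in 58.5%. Genes with a peak in RS alone rose in 45.2% and fell in 38.3%. Genes with no WT peak rose in 73.5% and fell in 18.5%, with a median relative change of 1.40, and their step was lower than in WT in 44.4% against 20.8% of genes with a peak in both. On the deposited scale the median log2 step in Setd2KO was 1.05 for no peak and −0.59 for a peak in both. In WT it was 1.18 and −0.53 for the same classes. Of the 2167 genes with no peak 928 had reached 1 FPKM in RS alone, which fixes their direction. Among genes at 1 FPKM or more in both cell types, 68.9% of 985 with no peak rose and 15.8% fell, against 22.0% and 54.4% of 6455 with a peak in both. Tnp1, Txndc2, Cypt12 and Cst8 belong to those with no peak, and Prm1, Prm2 and Acrbp to those with a peak in both. The classes also differ in level, with median PD Setd2KO levels of 9.62 FPKM for a peak in both and 1.22 FPKM for neither. The peaks come from 1 list per group, with an input library listed for PD alone, so these are descriptions without a test.

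**Figure D5:**
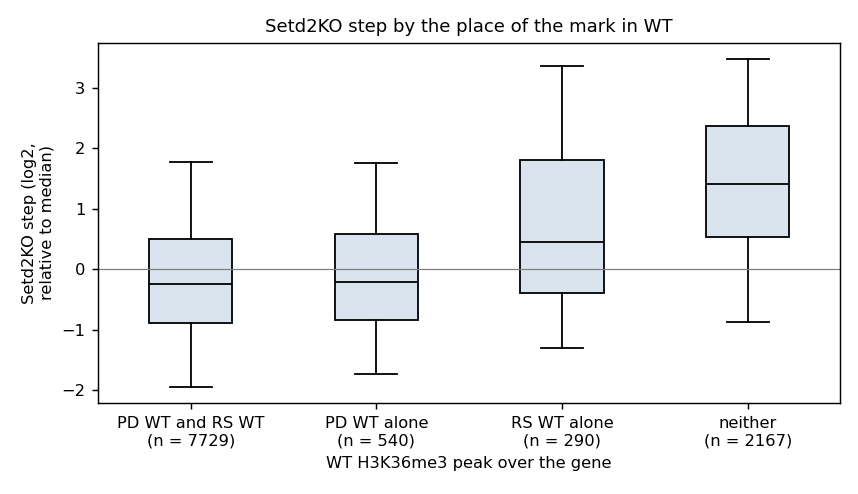
Relative log2 step from PD to RS in Setd2KO for members grouped by the WT H3K36me3 peaks over the gene. Boxes span the quartiles with the median as a line, and whiskers the 5th to 95th percentile of genes; the box of genes with no peak lies above 0 (median 1.40) and that of genes with a peak in both cell types is centred below it (−0.24).

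A peak was still listed in PD Setd2KO over 221 members, of which 59.3% rose, and in RS Setd2KO over 585 members, of which 38.3% rose. These genes had median lengths of 136 and 134 kb, against 21.0 kb over all members. By length, 46.2% of the 487 genes under 2 kb rose, 26.7% of the 2109 genes of 10 to 20 kb and 40.2% of the 1155 genes over 100 kb. The median log2 step of these classes was 0.11, −0.49 and −0.033 in Setd2KO and 0.041, −0.43 and 0.057 in WT. By chromosome the share that rose lay between 26.4% on chromosome 11 and 42.0% on chromosome 18, with 41.3% on chromosome 14.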

How the data were processed

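Polyadenylated RNA of 8 libraries and H3K36me3 chromatin of 4 groups were analysed from the authors' deposited gene tables, in FPKM, and from their peak lists, whose score column was not used, a score the authors deposited per peak. RNA reads were processed with CASAVA, TopHat2, Cufflinks and Cuffdiff on mm9, and ChIP reads with CASAVA and Bowtie, per the submitters' processing notes; versions are not given in the sources used here.

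Tables were joined by gene symbol. limma 3.58.1 (R 4.3.3, intensity trend) was fitted on log2(FPKM + 1) of all 8 libraries in 4 groups, over the 11452 genes, autosomal or not, whose group mean reached 1 FPKM in any group; every member was in the fit. Contrasts were the Setd2KO step, the WT step and their difference, with Benjamini-Hochberg adjustment and a threshold of 0.05. The fit was tested on simulated data. Of the members, 229 have other gene intervals in the PD and RS Setd2KO tables. Spermatid RNA was subtracted, as an alternative, by taking from each PD library its median share at the 468 spermatid genes times the RS mean of the same genotype, with a floor of 0. A peak counted where it overlapped the gene interval by at least 1 base. The members and lists were chosen with earlier results of these data known. Named genes are Setd2, Acrbp, the protamine and transition protein genes, the 12 largest rises and falls (called, groups not overlapping, at least 5 FPKM in the higher cell type), the 5 highest genes per cell type, up to 4 largest steps per list and the 8 largest differences per direction among genes of at least 5 FPKM in the highest group, without genes known by clone number; further genes were chosen after their values were seen. Sex-linked genes are not described. Promoter and start coordinates are GRCm38.p6, and gene coordinates mm9.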

Additional observations from a re-analysis of the deposited data

Results flagged for a closer look

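The difference between the Setd2KO step and the WT step passed for the following named genes, given as the relative log2 difference in the same limma fit. Setd2 itself differed by 0.88. Of the genes of nuclear condensation, Prm1 differed by −1.08, Prm3 by −1.71, Tnp1 by −1.15 and Tnp2 by −1.23. Of the genes with a higher Setd2KO step, the values were 1.98 for Rnls, 1.79 for Ndc80, 1.77 for Gsn, 1.73 for Pxt1, 1.71 for Aurkb, 1.68 for Myl9, 1.67 for Gem and 1.66 for Arhgef39. Of the genes with a lower Setd2KO step, they were −2.52 for Spatc1, −2.34 for Sec23a, −2.26 for Fbxo15, −2.24 for Znrf4, −2.22 for Tmem190, −2.21 for Noxred1, −2.20 for Ropn1 and −2.20 for Fam229a. Of the 29 meiotic division genes, 15 had a higher Setd2KO than WT step.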

How the results depend on the processing

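The counts of the Setd2KO step stayed within 1.5 times the reported ones under every alternative run, from 2315 (mean of at least 5 FPKM, which tests fewer genes) to 3804 (quantile normalization) that rose and from 3676 (mean of at least 5 FPKM) to 5731 (Setd2KO libraries only) that fell. Leaving out each library in turn gave 3081 to 3574 that rose and 5020 to 5707 that fell. For the difference from WT, leaving out each library gave 480 to 1530 genes higher and 2043 to 3231 lower, the number higher being 480 without the first RS WT, 524 without the first RS Setd2KO, 545 without the first PD Setd2KO and 1530 without the first PD WT library. The number higher was 459 with a mean of at least 5 FPKM, 1788 with upper-quartile scaling and 2201 with quantile normalization, which also gave 1842 lower. Steps that did not pass changed sign for Ndc80 without the first RS Setd2KO library (−0.15, against 0.27 without the second), for Arhgef39 with quantile normalization (0.13), and for Aurkb with upper-quartile scaling (0.0019), quantile normalization (0.25), spermatid RNA subtracted (0.052), and without the second PD (0.065) or the second RS Setd2KO library (0.057), against −0.20 without the first PD Setd2KO library. With spermatid RNA subtracted the differences of Prm1 (1.48), Prm2 (2.58), Tnp1 (1.86) and Tnp2 (1.61) changed sign, with 1 or both PD Setd2KO libraries at the floor of 0; the cause of the other changes was not tested. With the replicate number as a block, 3296 genes rose and 5352 fell, and the difference was higher for 657 and lower for 2310. Deviations of same-numbered libraries correlated at −0.31 in Setd2KO and −0.17 in WT, and no label ties a number to an animal. A block with crossed numbers, chosen after seeing the data, gave 3445 and 5577, and 1037 and 3167. Depth was recovered from the FPKM values, and 2 libraries per group limit the precision of every change.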

Other observations

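The 15 markers of elongating and condensing spermatids all rose in Setd2KO, from a summed level of 257 and 162 FPKM in PD to 1995 and 2156 FPKM in RS, where RS WT had 5676 and 5625 FPKM. Their step was lower than in WT for 14 of the 15, against 25.9% of all members. With spermatid RNA subtracted it was lower for 2, and that subtraction takes 11 of the 15 to 0 in 1 or both PD Setd2KO libraries. Of the 14 spermatogonia markers 7 were under 1 FPKM in every Setd2KO library, and of the 5 among the members 2 rose and 3 fell. Markers of Leydig cells summed to 5.56 and 7.50 FPKM over 8 genes in PD Setd2KO and to 10.6 and 14.9 FPKM in RS Setd2KO. Macrophage markers summed to 3.8 and 3.57 FPKM over 9 genes in PD and 6.86 and 4.63 FPKM in RS, with 7 under 1 FPKM in every Setd2KO library.

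The steps of the recombination genes differed from WT for 12 of 25, all of them lower in Setd2KO, against 25.9% lower of all members. With upper-quartile scaling 6 were lower and 2 higher, and without the second PD Setd2KO library 5 were lower and 0 higher. The steps of the piRNA genes differed for 2 of 17, both lower, against 25.9% lower of all members, and with upper-quartile scaling 2 were lower and 3 higher.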
